A study of Homo sapiens with 6 samples.

Results

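The ErbB system consists of the receptor tyrosine kinases EGFR, ERBB2, ERBB3 and ERBB4 and of the EGF-like growth factors that bind them, and its transcripts were followed here in T24 cells, a line established from a human bladder cancer, with and without oxidized low-density lipoprotein (ox-LDL). Of the 10 genes considered (EGFR, ERBB2, ERBB3, ERBB4, AREG, EREG, HBEGF, TGFA, BTC and NRG1), those whose symbol the platform annotation gives to a probe set were taken. These were 8 genes, 3 receptors and 5 ligands, each with 1 probe set, among 21448 probe sets tested; ERBB2 and AREG were not analysed here. Cells in both groups were kept without serum for 12 h and then received vehicle or 20 µg/mL ox-LDL, a cholesterol carrier with oxidized lipid and protein, for 24 h. The labels of both groups also give a serum content of 10%. Each group held 3 arrays, numbered 1 to 3 as in their titles, and ox-LDL against vehicle is the only comparison. One free-text field names siRNA treatments instead, and the groups follow the titles, which the source and treatment fields match. Nothing in the labels says that the 3 samples were separate cultures, so p-values measure only how far these samples differ among themselves, perhaps for technical reasons.

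EGF-like ligands are made as membrane-anchored precursors, and proteases of the ADAM family cut most of them free. A bound ligand brings receptors together in pairs, which then activate the RAS-ERK and PI3K-AKT cascades. ERBB2 binds no known ligand and ERBB3 has little kinase activity of its own, so each signals through a partner. EGFR and ERBB3 are well-known growth receptors of the urothelium and its tumours, and T24 cells carry an activated HRAS, a component that acts below the receptors.

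Values are RMA log2 expression values, in which 1 unit is a doubling; because probe sets differ in brightness, levels are compared between arrays and never between genes. A transcript is said to have risen or fallen where limma's p, adjusted by the Benjamini-Hochberg method over all 21448 probe sets, was under 0.05, and errors of differences are limma's standard errors (SE). The number of arrays limits the precision. The array of vehicle replicate 3 stood apart, with a lowest correlation across probe sets of 0.979 against at least 0.992 among the other 5 arrays. Keratin genes of simple epithelium, KRT7, KRT8 and KRT18, lay between 11.8 and 12.3 on the 6 arrays, and 6 of 7 measured epithelial markers lay above 5.09, under which 95% of negative control probe sets lie (called the negative control level here); CDH1, of cohesive epithelium, did not. Of 7 measured urothelial markers, GATA3, PPARG, FOXA1 and the uroplakins UPK1A and UPK2 were above this level and the uroplakins UPK1B and UPK3A below it. For other cell types, 2 of 3 leukocyte markers (CD3E and CD14, but not PTPRC), all 3 endothelial markers and 2 of 3 fibroblast markers (COL1A1 and DCN, but not LUM) were above it. Of the 23 measured epithelial, urothelial, leukocyte, endothelial and fibroblast markers, 0 passed limma's test and 4 had an unadjusted p under 0.05. Over all probe sets, 26.1% had such an unadjusted p. The mean level per array overlapped between vehicle and ox-LDL for the epithelial (8.50 to 8.67 and 8.57 to 8.70), urothelial (6.52 to 6.69 and 6.52 to 6.60) and endothelial markers (6.31 to 6.83 and 6.32 to 6.44). It was lower on every ox-LDL array for the leukocyte (5.63 to 5.98 against 5.55 to 5.61) and fibroblast markers (5.43 to 5.73 against 5.32 to 5.35), and their part in the results was not tested. All 8 receptor and ligand genes had group means above the negative control level.

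Among the growth factors, NRG1 and EREG fell with ox-LDL and the other 3 measured ligands did not pass the test, and none of the 3 receptors passed. NRG1 had the larger difference of the pair, at 3.74-fold lower, and EREG was 1.61-fold lower. Thus 2 of the 8 members passed, both lower, where 6.77% of all probe sets passed in either direction, 3.29% downward and 3.48% upward. Both also met the selection that the study's design text gives, a p of no more than 0.001, here unadjusted, with a change of 1.5-fold or more. Of all probe sets, 2.31% met it, 1.31% downward. The members and the gene lists below were chosen with earlier results of these data known. Their counts beside these shares are therefore a description and not a test. The median difference was -0.10 for the 5 ligands and -0.14 for the 3 receptors, beside -0.03 for all probe sets tested. Both class medians depended on vehicle replicate 3, without which they were -0.28 for the ligands and 0.05 for the receptors, and with array weights they were -0.23 and 0.07.

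NRG1 encodes neuregulin 1, which binds ERBB3 and ERBB4. Its log2 value was 11.68, 11.64 and 11.61 on vehicle arrays 1 to 3 and 9.82, 9.65 and 9.74 on ox-LDL arrays 1 to 3. The groups lay far apart, with SDs of 0.04 and 0.08 (n = 3 each). The difference was -1.90 (SE 0.08, 95% confidence interval -2.08 to -1.73, limma adjusted p = 0.000192), the 15th most negative of the 21448 differences. It stayed between -1.94 and -1.86 with any 1 array left out, with adjusted p from 0.000756 to 0.00380. The gene makes many isoforms from several promoters, and its single probe set does not tell them apart.

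EREG encodes epiregulin, a ligand of EGFR and ERBB4 that is often produced by tumour cells themselves. On vehicle arrays 1 to 3 its log2 value was 10.84, 10.80 and 10.92, and on ox-LDL arrays 1 to 3 it was 10.15, 10.12 and 10.24. Every ox-LDL array lay below every vehicle array. The difference was -0.68 (SE 0.07, 95% confidence interval -0.86 to -0.51, limma adjusted p = 0.00451). With 1 array left out it ran from -0.72 to -0.65 and passed each time, with adjusted p between 0.00473 and 0.0392.

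HBEGF, TGFA and BTC encode ligands of EGFR, and HBEGF and BTC products also bind ERBB4. HBEGF, heparin-binding EGF-like growth factor, had log2 values of 8.88, 8.76 and 8.30 on vehicle arrays and 8.55, 8.58 and 8.49 on ox-LDL arrays. The ox-LDL values lay inside the vehicle range, whose lowest value came from vehicle replicate 3. The difference of -0.10 (95% confidence interval -0.46 to 0.25, limma adjusted p = 0.672) became 0.012 without vehicle replicate 1 and -0.28 without vehicle replicate 3 (adjusted p = 0.0530). The interval therefore covers falls as well as rises.

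TGFA, transforming growth factor α, measured 8.71, 8.38 and 8.80 on vehicle arrays and 8.65, 8.54 and 8.57 on ox-LDL arrays, again inside the vehicle range. Its difference was -0.04 (95% confidence interval -0.33 to 0.24, limma adjusted p = 0.842), and its sign turned without vehicle replicate 3 (0.044) and with array weights (0.10). BTC, betacellulin, was at 5.64, 5.74 and 5.59 with vehicle and 5.60, 5.56 and 5.57 with ox-LDL, little above the negative control level. Its difference of -0.08 (95% confidence interval -0.25 to 0.10, limma adjusted p = 0.508) turned to 0.033 after cyclic loess. The intervals of HBEGF and TGFA do not reach the -0.68 of EREG, whereas BTC lies where differences are compressed and sets no such bound.

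**Figure D1:**
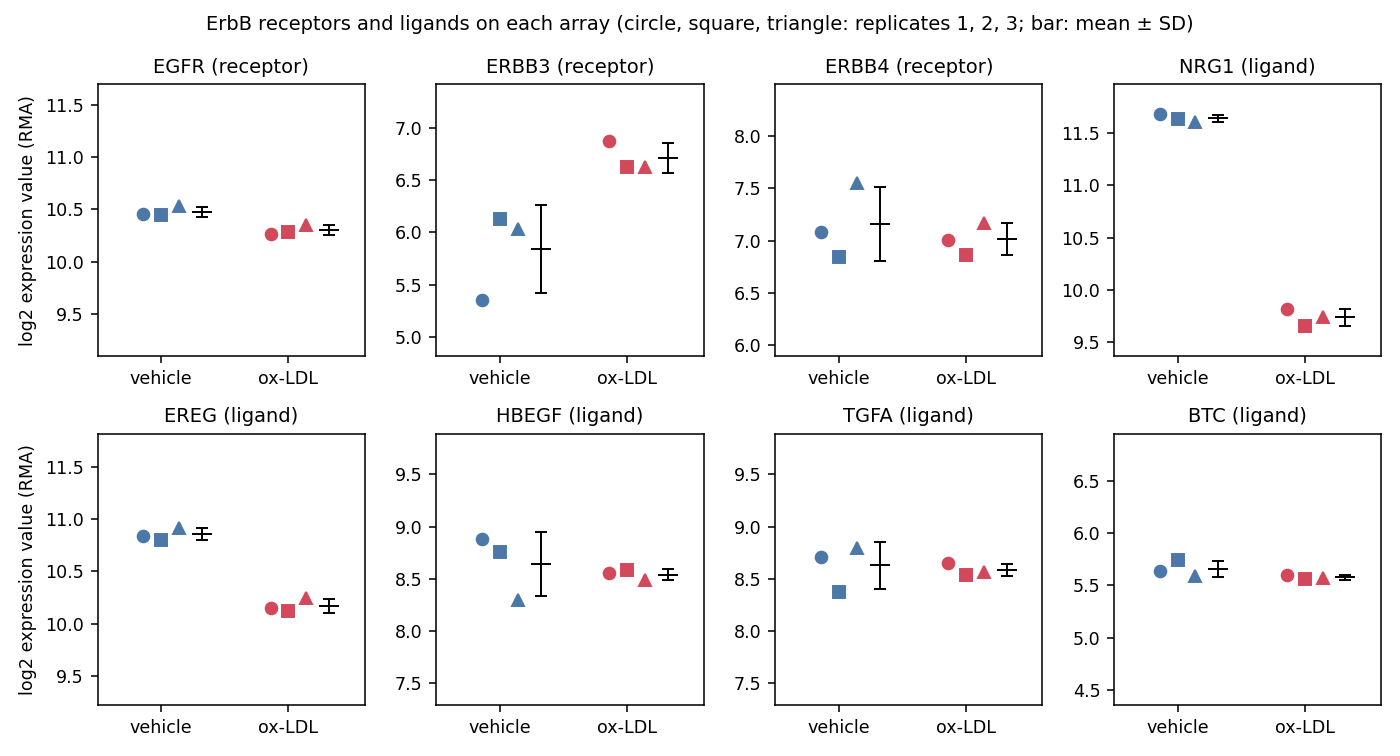
Log2 expression values of the 8 measured receptors and ligands on each array, in panels that span the same number of log2 units, with replicates 1, 2 and 3 as circle, square and triangle and the mean ± SD (n = 3) beside them. NRG1 and EREG separate into a higher vehicle and a lower ox-LDL group, whereas for HBEGF, TGFA, BTC and ERBB4 the groups overlap; ERBB3 shows its lowest value, 5.36, in vehicle replicate 1.

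On the receptor side, ERBB3 had the largest difference and an upward one. ERBB3, the neuregulin receptor that lends PI3K docking sites to its partner, measured 5.36, 6.13 and 6.03 on vehicle arrays 1 to 3 and 6.88, 6.63 and 6.63 on ox-LDL arrays 1 to 3. The groups did not overlap, but vehicle replicate 1 lay well below the other vehicle arrays. At 5.36 it was little above the negative control level, near which values are compressed. The difference was 0.87 (SE 0.21, 95% confidence interval 0.38 to 1.36), 1.83-fold, with a limma adjusted p of 0.0545 that missed the threshold. It was 0.63 without vehicle replicate 1 (adjusted p = 0.0437) and 0.97 without vehicle replicate 3 (adjusted p = 0.0479), and adjusted p lay between 0.0654 and 0.188 without any 1 of the other arrays. All 3 between-array scalings brought it past the threshold, with adjusted p of 0.0456 for equal array medians, 0.0358 for a second quantile normalization and 0.0290 for cyclic loess. ERBB3 thus sat at the threshold, and its side depended on settings that left the direction the same.

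EGFR, the receptor of EREG, HBEGF, TGFA and BTC products, had log2 values of 10.46, 10.45 and 10.53 on vehicle arrays and 10.26, 10.29 and 10.36 on ox-LDL arrays. All ox-LDL arrays lay below all vehicle arrays, yet the difference was small, at -0.18 (SE 0.07, 95% confidence interval -0.35 to -0.01, limma adjusted p = 0.171). It passed narrowly with an intensity trend and a robust fit (adjusted p = 0.04996) and in no other setting run. ERBB4, which binds neuregulins and several EGFR ligands, measured 7.09, 6.84 and 7.55 on vehicle arrays and 7.01, 6.87 and 7.17 on ox-LDL arrays. These ranges overlapped, and the difference of -0.14 (95% confidence interval -0.58 to 0.29, limma adjusted p = 0.635) became 0.052 without vehicle replicate 3 and 0.074 with array weights. While 0 receptors passed in limma, the unadjusted p of EGFR and ERBB3 was under 0.05, as it was for 26.1% of all probe sets. When the variances were not moderated, 0 receptors passed.

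Over the 8 genes, 4 had groups that did not overlap (NRG1, EREG and EGFR lower, ERBB3 higher), where 36.8% of all probe sets had this property. The difference was negative for all 5 ligands, apart from the turned signs of HBEGF, TGFA and BTC given above, and for 2 of 3 receptors. Each ligand was also set against its receptors within an array. NRG1 minus ERBB3, taken relative to its vehicle mean, was 0.52, -0.30 and -0.23 on vehicle arrays 1 to 3 and -2.86, -2.78 and -2.68 on ox-LDL arrays 1 to 3, a change of -2.77 on the log2 scale. EREG minus EGFR on the same scale was 0.01, -0.02 and 0.01 on vehicle arrays and -0.49, -0.54 and -0.49 on ox-LDL arrays, a change of -0.51. Against ERBB4, which binds both ligands, the change was -1.76 for NRG1 and -0.54 for EREG. These changes are given as a description with no test, and the first includes that of ERBB3, which did not pass.

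**Figure D2:**
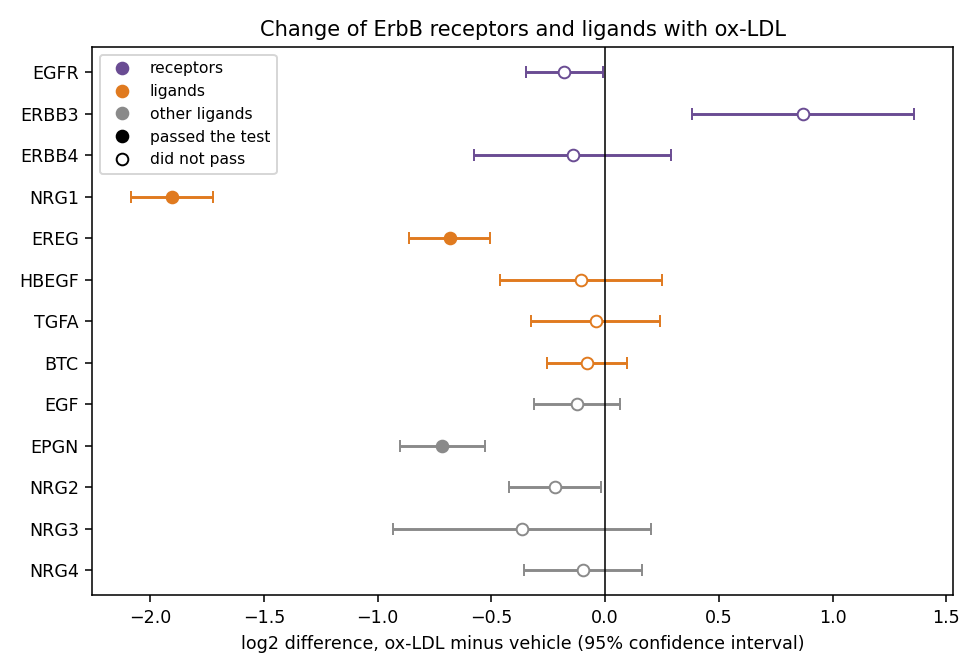
Log2 difference, ox-LDL minus vehicle, with limma's 95% confidence interval for the 3 receptors, the 5 ligands and 5 further ligands of the family; filled points passed the test. NRG1 at -1.90 stands apart from the others, EREG and EPGN lie at -0.68 and -0.72, and ERBB3 at 0.87 is the only one of the 13 to the right of 0.

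The 5 further ligands of the family (EGF, EPGN, NRG2, NRG3 and NRG4) were all measured, and 1 of them, EPGN, passed, with a lower value, where 6.77% of all probe sets passed. EPGN, which encodes epigen, an EGFR ligand, had log2 values of 4.61, 4.42 and 4.52 on vehicle arrays and 3.76, 3.86 and 3.79 on ox-LDL arrays. Every value lay below the negative control level, so the difference is not one between levels above background. Among the brighter probe sets only NRG2 of these ligands was kept, and it did not pass (limma adjusted p = 0.0742). The EPGN difference was -0.72 (SE 0.08, limma adjusted p = 0.00464), and it passed with any 1 array left out. NRG2 had a difference of -0.22 (adjusted p = 0.167), NRG3 of -0.36 (adjusted p = 0.363), EGF of -0.12 (adjusted p = 0.363) and NRG4 of -0.10 (adjusted p = 0.585). NRG4 too lay below the negative control level in both groups, with means of 3.43 with vehicle and 3.33 with ox-LDL. The NRG3 mean with ox-LDL, 4.78, was also below this level. The NRG3 value rested on vehicle replicate 3, which read 5.72 against 4.70 and 5.02, and was -0.08 without it. The median of the 5 was -0.22.

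EREG, EPGN and BTC are neighbours in the genome, and their start regions are shown because EREG fell while BTC, near it, did not pass; EPGN, measured only below the negative control level, lies on the other side of EREG. The windows run from 250 bases before to 50 bases after the annotated gene start in RefSeq (GRCh38.p14), where 8 of the 10 members were matched, all but ERBB3 and NRG1. They were searched on both strands for the TATA box letters TATAAA, for the AP-1 letters TGANTCA and for the cyclic AMP response element (CRE) letters TGACGTCA, and matches to these 3, none of which overlap, are in capitals. An NF-kB motif was searched as well and is given as counts of matches only.
EREG, chr4:74364895-74365194, plus strand: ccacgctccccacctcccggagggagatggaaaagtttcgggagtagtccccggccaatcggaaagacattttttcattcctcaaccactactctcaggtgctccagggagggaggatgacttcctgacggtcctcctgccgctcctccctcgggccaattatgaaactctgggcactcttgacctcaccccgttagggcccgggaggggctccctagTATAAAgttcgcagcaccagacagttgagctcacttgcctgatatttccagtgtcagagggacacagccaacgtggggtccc
EPGN, chr4:74308220-74308519, plus strand: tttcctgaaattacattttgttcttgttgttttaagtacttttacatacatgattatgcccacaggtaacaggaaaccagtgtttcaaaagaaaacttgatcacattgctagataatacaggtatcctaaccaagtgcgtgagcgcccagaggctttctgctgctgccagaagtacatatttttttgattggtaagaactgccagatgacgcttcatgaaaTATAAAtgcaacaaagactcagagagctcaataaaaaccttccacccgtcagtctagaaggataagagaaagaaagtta
BTC, chr4:74794474-74794773, minus strand: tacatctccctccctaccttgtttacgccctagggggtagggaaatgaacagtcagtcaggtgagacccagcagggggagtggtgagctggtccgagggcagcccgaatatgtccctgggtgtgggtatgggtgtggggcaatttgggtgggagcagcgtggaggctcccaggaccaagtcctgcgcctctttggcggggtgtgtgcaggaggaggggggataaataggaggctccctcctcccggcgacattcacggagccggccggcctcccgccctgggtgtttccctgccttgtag
EREG and EPGN each held a single match to these letters, TATAAA, beginning 32 and 29 bases before the start. BTC held none of the 3. For the NF-kB motif, BTC held 5 matches and EREG and EPGN 0, where 58.7% of all windows of this length held at least 1. Among the other ligands, AREG held 3, HBEGF 1 and the windows of TGFA 6 and 1. Of 35116 windows of this length, 11.5% held TATAAA, 7.71% held the AP-1 letters and 1.85% the CRE letters. HBEGF and both windows of TGFA held no TATAAA either, while the second of the EGFR windows did. AREG, which lies between EREG and BTC, held TATAAA 29 bases before its start and the only CRE match of the members' windows. These matches describe the letters only.

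In RefSeq order, the 10 protein-coding genes on each side of EREG were set beside it, a window chosen after the values of the members had been seen. Of 18 measured neighbours, 7 passed, all lower, where 3.29% of all probe sets passed downward, and 11 did not pass. Besides EPGN, below the negative control level, these were PARM1, a mucin-like membrane protein (log2 difference -2.27), and the neutrophil-attracting chemokines CXCL3 (-2.13), CXCL2 (-1.77), CXCL5 (-1.64), CXCL1 (-1.22) and CXCL6 (-0.51). CXCL1, CXCL2 and CXCL3 are near-identical copies whose probe sets may read each other's transcripts. CXCL6 lost its call without any 1 ox-LDL array or vehicle replicate 1 (adjusted p up to 0.120). Between EREG and PARM1, BTC did not pass and AREG was not analysed here. Around NRG1, 2 of 18 measured neighbours passed, ZNF703 and ERLIN2, both higher by 0.54 and 0.53, though not without any 1 ox-LDL array or vehicle replicate 2 (adjusted p up to 0.0875 and 0.115); over all probe sets 3.48% passed upward. Around ERBB3, 0 of 19 passed in limma, and 11 had an unadjusted p under 0.05. That is a larger share than the 26.1% of all probe sets.

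**Figure D3:**
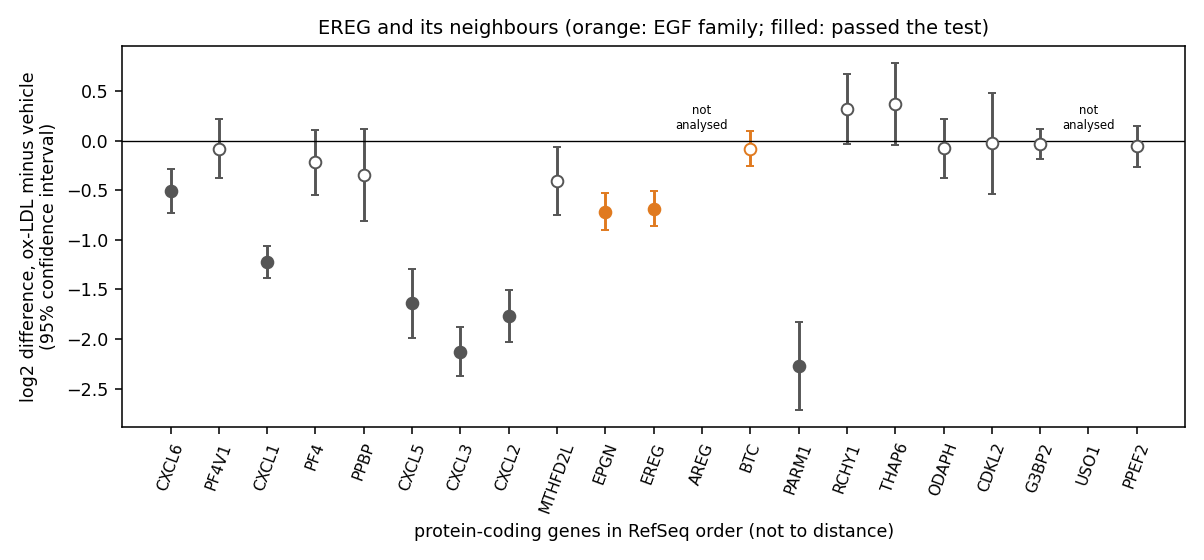
Log2 difference, ox-LDL minus vehicle, with 95% confidence interval for EREG and the 10 protein-coding genes on each side of it in RefSeq order, evenly spaced; EGF family genes are orange and filled points passed the test. The lower genes lie from CXCL6 to PARM1, and no measured gene from RCHY1 onward passed.

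By the smallest mean distance over the 6 arrays between values taken relative to each gene's own mean, the 3 genes most like NRG1 were DDIT3, a transcription factor of the stress response (mean distance 0.053), CXCL8, the chemokine interleukin 8 (0.073), and CXCL2 (0.11). Their log2 differences were -1.99, -1.97 and -1.77. The genes most like ERBB3 were ELFN2, a leucine-rich membrane protein (distance 0.11), the adenosine receptor gene ADORA1 (0.14) and the protein kinase A inhibitor gene PKIB (0.14). Their differences were 0.70, 0.85 and 0.67, and their limma adjusted p was 0.0338, 0.00809 and 0.0145. ELFN2 lost its call without any 1 ox-LDL array or vehicle replicate 2, PKIB without any 1 ox-LDL array and ADORA1 without ox-LDL replicate 2 (adjusted p = 0.0502). Genes of both sets were picked for likeness over these same 6 arrays. Differences near those of NRG1 and ERBB3 therefore follow from the choice and are no separate result.

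Of the 10 genes of ligand shedding, all measured, 0 passed in limma, although 6 had an unadjusted p under 0.05. The share over all probe sets was smaller, at 26.1%. When variances were not moderated 1 passed, with array weights 4, and 5 passed among the brighter probe sets or when an intensity trend and a robust fit were used. ADAM17, the main protease that releases TGFA and EREG products, measured 9.71, 9.62 and 9.17 with vehicle and 8.93, 8.90 and 8.95 with ox-LDL, so vehicle replicate 3 lay between the other vehicle arrays and the ox-LDL arrays. Its difference was -0.57 (adjusted p = 0.0632). Without vehicle replicate 3 it was -0.74 (adjusted p = 0.00311), and it also passed after a second quantile normalization (adjusted p = 0.0294) and cyclic loess (adjusted p = 0.0288). ADAM10, which releases betacellulin and EGF, had a difference of 0.23 (adjusted p = 0.0875), RHBDF1, which escorts ADAM17, -0.33 (adjusted p = 0.0735), and the tetraspanin CD9, a partner of membrane-bound HBEGF, -0.28 (adjusted p = 0.0805). The list's median was -0.07.

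The signalling components below the receptors were next. Of 12 measured adaptors and effectors that dock at the receptors, 0 passed in limma or with unmoderated variances. An unadjusted p under 0.05 was found for 3 of the 12, beside 26.1% of all probe sets. The phospholipase gene PLCG1 had a difference of 0.40 (adjusted p = 0.0555), the RAC activator VAV2 0.27 (adjusted p = 0.0924), the RAS activator SOS2 -0.39 (adjusted p = 0.170) and the actin regulator EPS8 0.38 (adjusted p = 0.351). Without vehicle replicate 3, PLCG1 (0.32, adjusted p = 0.0361) and SOS2 (-0.55, adjusted p = 0.0209) passed and EPS8 was at 0.08. Of the RAS-ERK and PI3K list, 9 of 17 genes were analysed here and 0 passed in limma or with unmoderated variances, nor was any unadjusted p under 0.05. HRAS had a difference of 0.17 (adjusted p = 0.267), AKT2 0.16 (adjusted p = 0.259), AKT1 0.14 (adjusted p = 0.282) and MAP2K2, the ERK kinase also called MEK2, -0.11 (adjusted p = 0.450). The medians of both lists were 0.02 and 0.03.

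Among 17 measured genes linked, in either direction, to receptor inhibition or degradation, ERRFI1 and SH3KBP1 fell, LRIG3 rose and 14 did not pass (median 0.02). The share passing over all probe sets was 6.77%, and this list too was chosen with earlier results of these data known. The count of 3 was 1 without any 1 ox-LDL array, 5 among the brighter probe sets or with an intensity trend and robust fit, and 6 with array weights. ERRFI1 encodes MIG6, an inhibitor that binds the EGFR kinase domain and is itself induced by EGFR signalling. It measured 12.69, 12.59 and 12.64 on vehicle arrays and 12.04, 11.92 and 11.91 on ox-LDL arrays, a fall of the same size as that of EREG (difference -0.68, SE 0.07, limma adjusted p = 0.00451), and passed with any 1 array left out. SH3KBP1, an adaptor in CBL-linked receptor uptake, had a difference of -0.57 (SE 0.08, adjusted p = 0.00982), and lost its call without any 1 ox-LDL array (adjusted p up to 0.0653). LRIG3, a leucine-rich membrane protein related to the ErbB inhibitor LRIG1, measured 6.99, 7.10 and 6.30 with vehicle and 7.70, 7.82 and 7.82 with ox-LDL. Its difference of 0.98 (SE 0.20, adjusted p = 0.0381) was 0.73 without vehicle replicate 3 (adjusted p = 0.00454), and it did not pass when vehicle replicate 1 or any 1 ox-LDL array was left out (adjusted p up to 0.146), after a second quantile normalization (adjusted p = 0.0520), with the replicate block (adjusted p = 0.0685) or with unmoderated variances (adjusted p = 0.132). RNF41, a ubiquitin ligase that targets ERBB3, had a difference of -0.25 (adjusted p = 0.103).

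**Figure D4:**
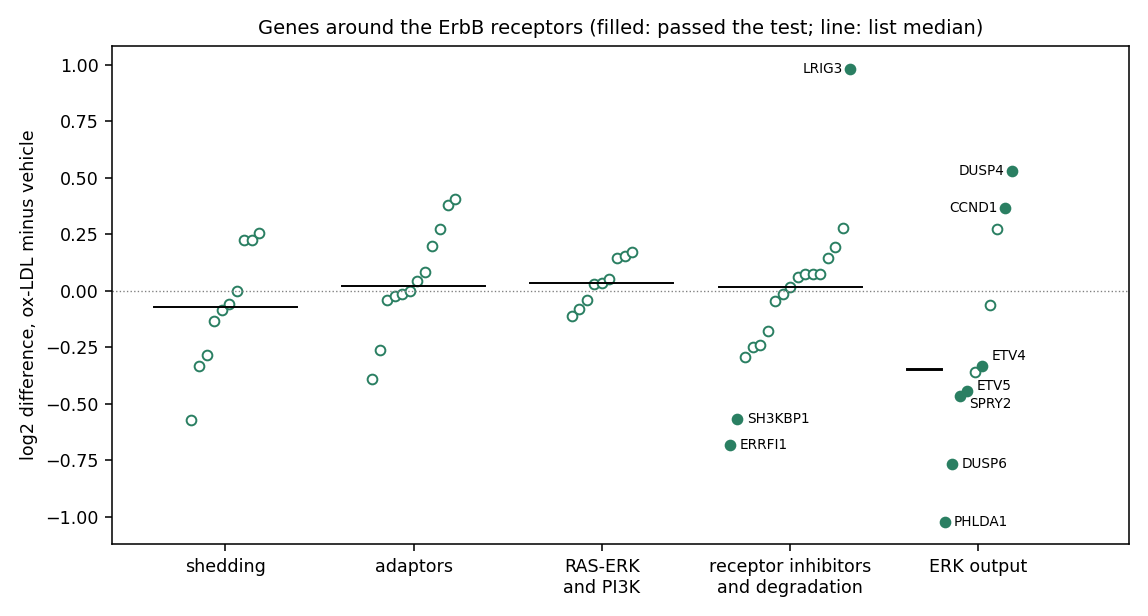
Log2 difference, ox-LDL minus vehicle, of each measured gene in 5 lists around the receptors, ordered by value within a list; filled points with names passed the test and black lines mark list medians. Shedding, adaptor and cascade genes show no filled point, and the genes of ERK output spread from -1.02 for PHLDA1 to 0.53 for DUSP4.

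A list of 10 genes whose transcription follows ERK activity in many cell types was all measured. Of these, 5 fell, 2 rose and 3 did not pass, with a median of -0.35, where 6.77% of all probe sets passed. The list was chosen with earlier results of these data known, so the count beside that share is a description and not a test. PHLDA1, a growth-regulating factor, went from 11.73, 11.69 and 11.72 to 10.72, 10.65 and 10.71 and fell by 1.02 on the log2 scale (SE 0.07, limma adjusted p = 0.000957). DUSP6, the phosphatase that inactivates ERK in the cytoplasm, fell by 0.77 (SE 0.08, adjusted p = 0.00331), from 9.56, 9.44 and 9.50 to 8.82, 8.72 and 8.68. The feedback inhibitor SPRY2 fell by 0.47 and the transcription factors ETV5 and ETV4 by 0.44 and 0.33. The members did not move one way: DUSP4, a nuclear ERK phosphatase, rose by 0.53 (adjusted p = 0.0161), and CCND1, which encodes cyclin D1, by 0.36 (adjusted p = 0.0389). The count of 7 was 2 without any 1 ox-LDL array or vehicle replicate 2, 3 without vehicle replicate 1 and 8 without vehicle replicate 3. PHLDA1 and DUSP6 passed in each of these, whereas the calls of SPRY2, ETV4, ETV5 and CCND1 needed all arrays but vehicle replicate 3, and DUSP4 was lost without any 1 ox-LDL array or vehicle replicate 2. CCND1 also missed the threshold with cyclic loess (adjusted p = 0.0699), a second quantile normalization (adjusted p = 0.0538) and unmoderated variances (adjusted p = 0.0505), and under either of these scalings 6 of the list were lower and 1 higher. With the replicate number as a block 2 passed.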

How the data were processed

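Arrays of biotin-labelled cDNA from 6 T24 samples, 3 per group, were used. The values the authors deposited are log2 intensities summarised by RMA, per the submitters' processing notes. Which RMA version, build or annotation they used is not given in the sources used here; the scale was inferred from the range, 2.28 to 14.1. RMA makes array distributions alike, which hides any change in RNA per cell.

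Of 24350 probe sets, 2902 controls were left out. Of the other 21448, 17709 were named by 1 gene symbol and 3739 were left unnamed. All 21448, named or not, were fitted together with limma 3.58.1 in R 4.3.3 (lmFit and eBayes, ox-LDL minus vehicle), with Benjamini-Hochberg adjustment over them. Figures used matplotlib 3.10.9. The procedure was tested on simulated data. The members and gene lists were chosen with earlier results of these data known. Named genes are all members, the 4 of each list with the smallest p, any others that passed, and the 3 genes most alike to the ligand and to the receptor with the smallest p; EREG, NRG1 and ERBB3 neighbours were added after their values were seen. The negative control level is the 95th percentile of the negative control probe sets' means (5.09). The percentile over all their single values, tried first, was 5.21. It was replaced after values were seen, and the higher level would put both group means of NRG3 below it. NF-kB matches were counted in the promoter windows but not marked in the sequences. Alternatives were other scalings, a brightness filter, other variance models, array weights, a replicate block, other thresholds and leaving out each array.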

Additional observations from a re-analysis of the deposited data

How the results depend on the processing

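The calls of NRG1 and EREG held in every alternative run, so the ligands called numbered 2 throughout. Members called were 2 or 3, but 4 with an intensity trend and robust fit, and 2 to 3 with 1 array left out. Receptors called, 0 in the main setting, were 1 with array weights, cyclic loess, a second quantile normalization or equal array medians, 2 with the intensity trend and robust fit, and 0 to 1 with 1 array left out; the cause was not tested. The median ligand difference was -0.16 after a second quantile normalization, -0.39 among the brighter probe sets (which leave out BTC) and -0.23 with array weights, and -0.28 to -0.077 with 1 array left out. The median receptor difference was 0.074 with array weights and -0.21 to 0.052 with 1 array left out. Genes of the 6 other lists that passed, 11 in all, were 20 among the brighter probe sets, 21 with the intensity trend, 23 with array weights, 5 with the replicate block, 5 at an adjusted p under 0.01, 4 by the study's selection and 4 to 16 with 1 array left out. Signs of differences that did not pass turned for BTC with cyclic loess (0.033) and for ERBB4 (0.074) and TGFA (0.10) with array weights. With 1 array left out, the difference ran from -0.30 to 0.052 for ERBB4, from -0.28 to 0.012 for HBEGF and from -0.17 to 0.044 for TGFA, and was positive without vehicle replicate 3 for ERBB4 and TGFA and without vehicle replicate 1 for HBEGF. Over all probe sets the number passing, 1451, ran from 305 without ox-LDL replicate 2 to 3962 with array weights.

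Correlations of deviations from group means between samples with the same replicate number were -0.0061, 0.030 and 0.020 for numbers 1 to 3. With 3 arrays a group and vehicle replicate 3 standing apart, these values cannot tell whether the numbers mark pairs. The replicate block gave 550 calls and kept those of EREG (adjusted p = 0.0308) and NRG1 (adjusted p = 0.00705). At 3 arrays a group, intervals of the members that did not pass were up to 0.98 wide on the log2 scale. Values near the negative controls, such as those of EPGN and BTC and of ERBB3 on vehicle replicate 1, are compressed.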
